A study of Mus musculus with 16 samples.

Results

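Triglycerides are built by adding fatty acyl chains to glycerol 3-phosphate in a short series of steps, and 7 mouse genes of this series were followed here. Gpam encodes the mitochondrial enzyme that adds the first acyl chain. Agpat2 and Agpat3 encode acyltransferases that turn the product, lysophosphatidic acid, into phosphatidic acid. Lpin1 and Lpin2 encode lipins, which remove the phosphate and leave diacylglycerol, and Dgat1 and Dgat2 encode the enzymes that add the last acyl chain. Adipocytes store energy as triglyceride, and loss of AGPAT2 or of Lpin1 is known to cause lipodystrophy in humans or mice. H3K27ac is a histone mark of active promoters and enhancers, and H3K4me1 marks enhancers that are primed or active.

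The genes were chosen by name from 22367 protein-coding genes, and each was given a window of its gene body plus 50 kb on each side in mm9. All enriched regions, called islands, of 16 ChIP-seq lists that overlapped these windows were taken. There were 542 such islands, of which 316 came from H3K27ac, 85 from SETD5-V5, 138 from H3K4me1 and 3 from endogenous SETD5. The lists give positions and a score per island and hold no read counts. The length covered by islands within a window was therefore the quantity compared, and a region that is not listed was below the threshold of the caller, not shown to lack the mark.

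All 16 libraries came from 3T3-L1, a mouse preadipocyte line. H3K27ac was measured in cells carrying an empty retroviral vector (labelled Empty) and in cells carrying a vector for V5-tagged SETD5 (labelled SETD-V5), a SET domain protein, before differentiation (day 0, here 0 h) and at day 2 (48 h), with replicates A and B of each of the 4 groups. V5-tagged SETD5 was measured with an antibody to V5 at 0 h and 6 h with replicates A and B, where the label for the virus is a dash for replicate A and SETD-V5 for replicate B. H3K4me1 at day 0 and day 2 and endogenous SETD5 (antibody IgG-F2104) at 0 h and 6 h had 1 library each. The H3K4me1 labels name the SETD-V5 virus and the text of the study names none for them, so it is not settled whether H3K4me1 is set here beside H3K27ac of the same kind of cells. Differentiation was started after confluence with insulin, dexamethasone and isobutylmethylxanthine. The study calls A and B biological replicates, and the labels do not say whether the letters mark separate cultures, so p-values measure the spread between these libraries. SETD5-V5 was expressed from a retroviral vector on top of the cells' own gene. A lower share of cells carrying a mark cannot be told apart from less of the mark per cell.

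The H3K27ac lists held 31292 to 39949 islands that covered 103.4 to 121.5 Mb. At 48 h the empty-vector lists held 31292 and 33131 islands of median length 2800 and 2400 bp, from 16364976 and 17345307 total reads. The SETD5 lists held 39068 and 39451 islands of median length 2000 and 2200 bp, from 18159083 and 20734244 reads. Apart from equal island numbers and scaling to total covered length, the part of these differences in the lengths below was not tested. The SETD5-V5 lists stood further apart, with 16054 and 6666 islands at 0 h in replicates A and B, and 35573 and 27220 at 6 h. The H3K4me1 lists held 50276 and 49926 islands, and the endogenous SETD5 lists 2132 at 0 h and 3293 at 6 h. As a check of the cells, the starts of 7 preadipocyte or fibroblast marker genes all carried H3K27ac in the 8 lists, and those of 6 genes of muscle, blood, liver and nerve cells carried it in none. Of 7 adipocyte marker genes, 3 carried it at 0 h in each vector. At 48 h the count was 7 and 6 in the empty-vector replicates and 5 in both SETD5 replicates, where Adipoq and Cd36 had none. Cd36 was also without it in empty-vector replicate B, so Adipoq alone differed between the vectors in both replicates. The part of this marker difference in the results below was not tested.

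In the annotation of mm9, Gpam (ENSMUSG00000024978.9) lies on the minus strand of chromosome 19 from 55142142 to 55201824, and Agpat2 (ENSMUSG00000026922.7) on the minus strand of chromosome 2 from 26448577 to 26459937. Agpat3 (ENSMUSG00000001211.8) lies on the minus strand of chromosome 10 from 77731923 to 77815234, and Lpin1 (ENSMUSG00000020593.7) on the minus strand of chromosome 12 from 16542475 to 16596576. Lpin2 (ENSMUSG00000024052.10) lies on the plus strand of chromosome 17 from 71531900 to 71599157. Dgat1 (ENSMUSG00000022555.5) lies on the minus strand of chromosome 15 from 76332445 to 76342381, and Dgat2 (ENSMUSG00000030747.4) on the minus strand of chromosome 7 from 106302173 to 106331223. The windows of Gpam and Lpin1 held no other coding gene. Those of the others held 1 (Emilin2 beside Lpin2), 2 (Uvrag and Mogat2 beside Dgat2), 3 (Agpat2 and Agpat3) or 7 (Dgat1), so an island there need not belong to the named gene.

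In empty-vector cells, H3K27ac spread over 6 of the 7 windows during the first 48 h. The gain was largest at Lpin1, followed by Agpat2, Gpam and Dgat2, and was small at Agpat3 and Dgat1. Lpin2 was the member that did not pass. The differences were tested with limma on log2(covered bp + 1000) over the 17041 windows with a mean of at least 1000 covered bp, and those with an adjusted p under 0.05 were called. All 7 members passed this minimum. Over all windows, 25.6% were called higher and 14.3% lower, so a gain by itself was common. The median log2 difference was 1.01 over the members and 0.14 over all windows.

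At Lpin1, the lipin with the main role in fat tissue, H3K27ac covered 3.8 and 4.6 kb at 0 h and 20.2 and 22.6 kb at 48 h in replicates A and B of empty-vector cells. Every 48 h library lay far above both 0 h libraries, and the log2 difference was 2.11 (SE 0.17, adjusted p = 7.04e-06). At Agpat2 the covered length rose from 20.2 and 12.0 kb to 48.8 and 39.4 kb, a log2 difference of 1.43 (SE 0.24, adjusted p = 0.00078). At Gpam it rose from 6.4 and 7.4 kb to 22 and 14.2 kb, a log2 difference of 1.25 (SE 0.22, adjusted p = 0.00119). The replicates of Gpam at 48 h were far apart, yet both lay above the 0 h values. Dgat2 rose from 12.2 and 9.4 kb to 29 and 17.6 kb (log2 difference 1.01, SE 0.21, adjusted p = 0.00344), again with replicate A the longer at 48 h.

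Agpat3 started from a high level, with 24 and 25 kb at 0 h, and reached 38 and 30 kb at 48 h (log2 difference 0.45, SE 0.14, adjusted p = 0.0253). Dgat1 covered 20.2 and 15.2 kb at 0 h and 24.6 and 23.8 kb at 48 h (log2 difference 0.44, SE 0.16, adjusted p = 0.0488). At these 2 genes the groups did not overlap, but the step between them was close to the spread at 0 h for Dgat1 and to that at 48 h for Agpat3. Lpin2 covered 17.4 and 15.4 kb at 0 h and 19.6 and 17.0 kb at 48 h, so the groups overlapped (log2 difference 0.15, SE 0.14, adjusted p = 0.447). In 6 of 7 windows both 48 h libraries lay above both 0 h libraries, as did 41.1% of all windows tested. Dgat1 was not called with a pseudocount of 200 bp, equal numbers of islands, no filter or a replicate block. Agpat3 and Dgat2 were not called with a 10 kb window or with islands above the median score, nor was Agpat3 with islands nearest to the start. The calls of Lpin1, Agpat2 and Gpam held when any 1 of the 8 libraries was left out, and so did that of Dgat2. Agpat3 was not called without replicate A at 48 h or without either 0 h replicate of the empty vector, and Dgat1 was called in 1 of the 8 fits that left out a library.

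**Figure D1:**
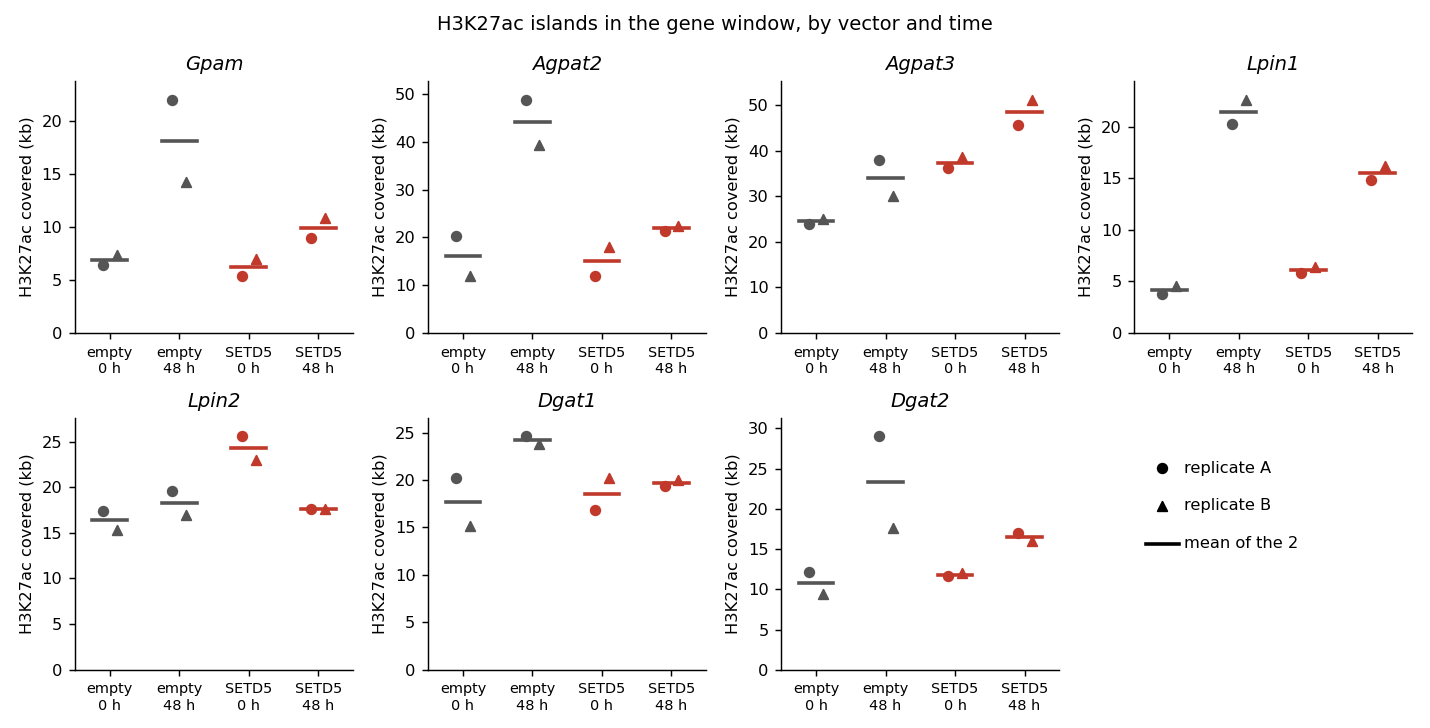
Length covered by H3K27ac islands in the window of each gene (kb, vertical axis from 0) in the 4 groups of vector and time. Circles are replicate A, triangles replicate B and bars the mean of both, with empty-vector cells in grey and SETD5 cells in red; at Lpin1 the empty-vector libraries moved from 3.8 and 4.6 kb to 20.2 and 22.6 kb, and at Agpat2 the SETD5 libraries at 48 h (21.4 and 22.4 kb) lay below the empty-vector ones (48.8 and 39.4 kb).

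Over the same 48 h in SETD5 cells, Lpin1 rose and Lpin2 fell, while the other 5 did not pass the test. This count moved with the processing. After scaling to the total covered length, Gpam, Agpat2 and Agpat3 were also called, all higher, and with a 10 kb window Agpat2 was also called lower and Dgat1 higher. With islands above the median score, and with equal numbers of islands, Agpat2 was called higher and Lpin2 was not called. With islands nearest to the gene's own start, Dgat1 was called higher and Lpin2 was not called. In all windows 16.2% were called higher and 12.9% lower, with a median difference of 0. Lpin1 covered 5.8 and 6.4 kb at 0 h and 14.8 and 16.2 kb at 48 h, a log2 difference of 1.22 (SE 0.17, adjusted p = 0.000368), and was called in all 16 alternatives. Lpin2 covered 25.6 and 23.0 kb at 0 h and 17.6 kb in both replicates at 48 h, a log2 difference of -0.44 (SE 0.14, adjusted p = 0.0378). This call was lost when any 1 of the 4 SETD5 libraries was left out, and in 4 of the 8 alternatives that kept every library.

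Gpam covered 5.4 and 7 kb at 0 h and 9 and 10.8 kb at 48 h in SETD5 cells (log2 difference 0.60, SE 0.22, adjusted p = 0.0664). Agpat2 covered 12 and 18 kb and then 21.4 and 22.4 kb (log2 difference 0.54, SE 0.24, adjusted p = 0.119). For both, each 48 h library lay above each 0 h library. Agpat3 covered 36.2 and 38.6 kb and then 45.6 and 51.2 kb (log2 difference 0.36, adjusted p = 0.077), and Dgat2 covered 11.6 and 12 kb and then 17 and 16 kb (log2 difference 0.45, adjusted p = 0.15). Dgat1 had overlapping groups, with 16.8 and 20.2 kb at 0 h and 19.4 and 20 kb at 48 h (log2 difference 0.09, adjusted p = 0.733). In 5 of 7 windows both 48 h libraries lay above both 0 h libraries and in 1 below, against 32.5% and 31.3% of all windows. The median over the members was 0.45.

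Between the vectors before differentiation, Agpat3 alone of the 7 members was called, with 36.2 and 38.6 kb in SETD5 cells against 24 and 25 kb in empty-vector cells (log2 difference 0.59, SE 0.14, adjusted p = 0.0492). In all windows 2.05% were called higher and 1.11% lower. Lpin2 had a similar gap, 25.6 and 23.0 kb against 17.4 and 15.4 kb, and did not pass (log2 difference 0.54, SE 0.14, adjusted p = 0.0698). Agpat3 was called in 3 of 16 alternatives and in 2 of the 8 fits that left out a library. With equal numbers of islands per list the share of higher calls among all called windows was 40.5%, against 64.9% without that step.

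At 48 h, H3K27ac covered less of the Agpat2 and Gpam windows with SETD5 and more of the Agpat3 window. The background was 9.25% of windows called lower and 8.02% called higher. Agpat2 covered 21.4 and 22.4 kb in SETD5 cells and 48.8 and 39.4 kb in empty-vector cells, a log2 difference of -0.97 (SE 0.24, adjusted p = 0.0198). Gpam covered 9 and 10.8 kb against 22 and 14.2 kb, a log2 difference of -0.78 (SE 0.22, adjusted p = 0.0357). Agpat3 covered 45.6 and 51.2 kb against 38 and 30 kb, a log2 difference of 0.50 (SE 0.14, adjusted p = 0.0318). Its gap between the vectors was similar at 0 h, with a log2 difference of 0.59. Lpin1 (log2 difference -0.44, adjusted p = 0.0989), Dgat2 (-0.43, adjusted p = 0.207) and Dgat1 (-0.28, adjusted p = 0.268) were below the empty-vector libraries in both SETD5 replicates without passing the test. Lpin2 gave -0.05 (adjusted p = 0.864), with overlapping groups.

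In 5 of the 7 windows both SETD5 libraries lay below both empty-vector libraries at 48 h, against 34% of all windows tested. No member was called at 48 h when SETD5 replicate A or replicate B of that time was left out. Without empty-vector replicate A of 48 h, Agpat3 alone was called, and without its replicate B the calls were Gpam, Agpat2 and Dgat2, all lower. With equal numbers of islands per list, 30.3% of all called windows were higher in SETD5 cells, against 46.4% without that step, and Agpat2 and Lpin1 were called lower. No member was called with no filter. A 10 kb window and islands nearest to the gene's own start called Agpat2 alone, and islands above the median score called Gpam alone, all lower.

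The test of the difference itself, the 48 h change in SETD5 cells minus that in empty-vector cells, called 0 members with limma, and 1.88% of all windows higher and 2.89% lower. At an unadjusted p under 0.05 there were 3 of the 7 members, against 20.1% of all windows. Lpin1 came closest (log2 difference -0.89, SE 0.23, adjusted p = 0.058), followed by Lpin2 (-0.59, SE 0.20, adjusted p = 0.127) and Agpat2 (-0.89, SE 0.34, adjusted p = 0.168). Gpam gave -0.64 (adjusted p = 0.287), Dgat2 -0.56 (adjusted p = 0.339), Dgat1 -0.35 (adjusted p = 0.435) and Agpat3 -0.09 (adjusted p = 0.862). The estimate was below 0 at all 7 members, with a median of -0.59 against -0.13 over all windows.

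**Figure D2:**
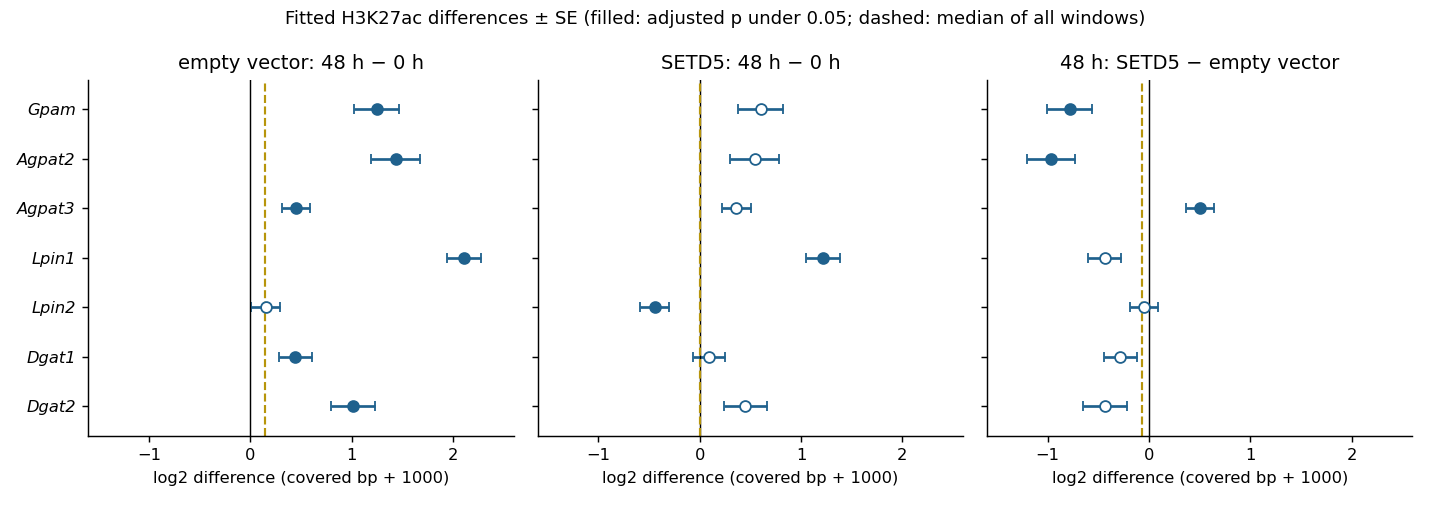
Fitted log2 differences in H3K27ac covered length + 1000 bp (horizontal axis) with their SE for the 7 genes in 3 comparisons. Filled points were called by limma and dashed lines mark the median of all windows; in empty-vector cells 6 of 7 points are filled, in SETD5 cells those of Lpin1 and Lpin2, and at 48 h between vectors those of Gpam, Agpat2 and Agpat3.

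Levels can be set side by side as the share of each window that is covered. At 48 h in empty-vector cells Agpat2 led with 39.6% ± 5.97 (SD, n = 2), followed by Dgat1 with 22.0% ± 0.515, Agpat3 with 18.5% ± 3.09 and Dgat2 with 18.1% ± 6.25. Lpin1 had 13.9% ± 1.1, Gpam 11.3% ± 3.45 and Lpin2 10.9% ± 1.1. Agpat2 lay above Dgat1 and Dgat1 above Agpat3 in both replicates, while the range of Dgat1 (21.6 to 22.4%) lay within that of Dgat2 (13.6 to 22.5%), and the ranges of Agpat3 and Dgat2, of Dgat2 and Lpin1, of Lpin1 and Gpam and of Gpam and Lpin2 overlapped. The median of all coding windows was 4.67% and 4.13% in these libraries. At 0 h Lpin1 had 2.73% ± 0.367 and Gpam 4.32% ± 0.443, near the median of all windows (4.23% and 3.7%), whereas the other 5 members ranged from 8.37% (Dgat2) to 16.1% (Dgat1).

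The islands of the 8 H3K27ac lists were joined into sites wherever they overlapped, which gave 53 sites in the 7 windows and 53156 in the genome. A site was called induced when each empty-vector 48 h list held it and no empty-vector 0 h list did, lost in the reverse case, and kept when it was in all 4. Of the 53 sites, 9 were induced (17%, against 11% of all sites), 24 were kept (45.3% against 35.1%) and 0 were lost (against 14.1%). Of the remaining 20, 12 were in no empty-vector list and 8 were in 1 to 3 of them. Of the kept sites, 10 of 24 were longer in both 48 h lists than in both 0 h lists (41.7% against 29%) and 3 were shorter (12.5% against 21.9%). Of all 53, 24 were in each of the 8 H3K27ac lists (45.3% against 32.9%). At 48 h, 9 of the 24 kept sites were shorter in both SETD5 lists than in both empty-vector lists (37.5% against 30.3%) and 4 were longer (16.7% against 14.7%). These counts describe 53 sites in 7 places and carry no test. Of the 53 sites, 26 had one of the 7 genes as the nearest start.

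Most of the induced sites were not listed in SETD5 cells at 48 h. Of the 9, 6 were in neither SETD5 list at 48 h, which is 66.7% against 24.2% of the 5863 induced sites of the genome, and the other 3 were in both. In the other direction, 5 of the 53 sites were in both SETD5 48 h lists and in no empty-vector list (9.43% against 5.69% of all sites), 4 of them in the Agpat3 window and 1 in an intron of Lpin1. With islands above the median score alone, 2 of 7 induced sites were absent with SETD5 (28.6% against 24.1% of the genome), so that the share was near the background. Without replicate B it was 6 of 12 (50% against 37.5%). Over all 7 alternatives it lay between 28.6% and 75%, against 23.6% to 37.5% of the genome. H3K4me1 at 48 h overlapped 8 of the 9 (88.9% against 62.7%) and at 0 h 4 of the 9 (44.4% against 37.6%). Of the kept sites 20 of 24 had H3K4me1 already at 0 h (83.3% against 70.5%), and of all 53 sites 33 had it at 0 h (62.3% against 52.7%) and 41 at 48 h (77.4% against 50.3%).

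The absent sites included a pair upstream of Dgat2, the gene of the last acylation step. The first, chr7:106334401-106342000, has its centre 6.98 kb upstream of the start in intergenic DNA, and H3K27ac covered 7600 and 1600 bp of it in the empty-vector replicates at 48 h. The second, chr7:106362401-106367000, lies 33.5 kb upstream, nearer to the start of Mogat2, and was covered over 4600 and 3600 bp. H3K4me1 covered 2200 bp of the first and 4600 bp of the second at 48 h, against 0 and 1200 bp at 0 h. Neither had SETD5-V5 at either time. In the empty-vector 48 h lists, 38.8% and 81.5% of islands scored higher than the best island of the first site. For the second site the values were 35.4% and 40.1%.

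A further pair lay upstream of Agpat2. The site chr2:26469801-26474800, 12.4 kb upstream in an intron of Gm20532, was covered over 3800 and 3600 bp at 48 h, and the site chr2:26483601-26485400, 24.6 kb upstream at the start of Fam69b, over 1000 and 1800 bp. H3K4me1 at 48 h covered 1800 and 600 bp of them, and was at 0 h in neither. In the empty-vector 48 h lists, 42.2% and 58.6% of islands scored higher at the first site, and 90.3% and 80.9% at the second. At Agpat3 the absent site was chr10:77806801-77809200, 7.23 kb into the gene in an intron, with 1600 and 2000 bp in the empty-vector 48 h lists. Of the islands in those lists, 97.6% and 92.7% scored higher. H3K4me1 covered 1800 bp of it at 0 h and 2000 bp at 48 h. In the Lpin2 window it was chr17:71626001-71628200, in an intron of Emilin2, with 2000 bp in both replicates and no H3K4me1 at either time. There 73.2% and 84.3% of islands scored higher. Islands of low rank, as at Agpat3 and the Fam69b start, lie close to the caller's threshold. The part of this in their absence from the SETD5 lists was not tested.

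Of the 3 induced sites that were also listed with SETD5, those of Gpam and Lpin1 were shorter there in both replicates, and that of the Dgat2 window overlapped in length. At Gpam, chr19:55210601-55220200, an intergenic site with its centre 13.6 kb upstream of the annotated start, was covered over 9600 and 4400 bp in empty-vector cells and over 3200 and 3000 bp in SETD5 cells at 48 h. SETD5-V5 covered 7200 and 4600 bp of it at 6 h and 0 bp at 0 h, endogenous SETD5 covered 5000 bp at 6 h, by an island of low rank (86.8% of the islands of that list scored higher), and 0 bp at 0 h, and H3K4me1 covered 3600 bp at 0 h and 6400 bp at 48 h. At Lpin1, chr12:16636001-16639200 (41 kb upstream, intergenic) was covered over 3000 and 3200 bp in empty-vector cells and 1200 and 1400 bp in SETD5 cells. In an intron of Uvrag, 68.7 kb downstream of the Dgat2 start, chr7:106261201-106263800 was covered over 2400 and 2000 bp against 2000 and 1800 bp.

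**Figure D3:**
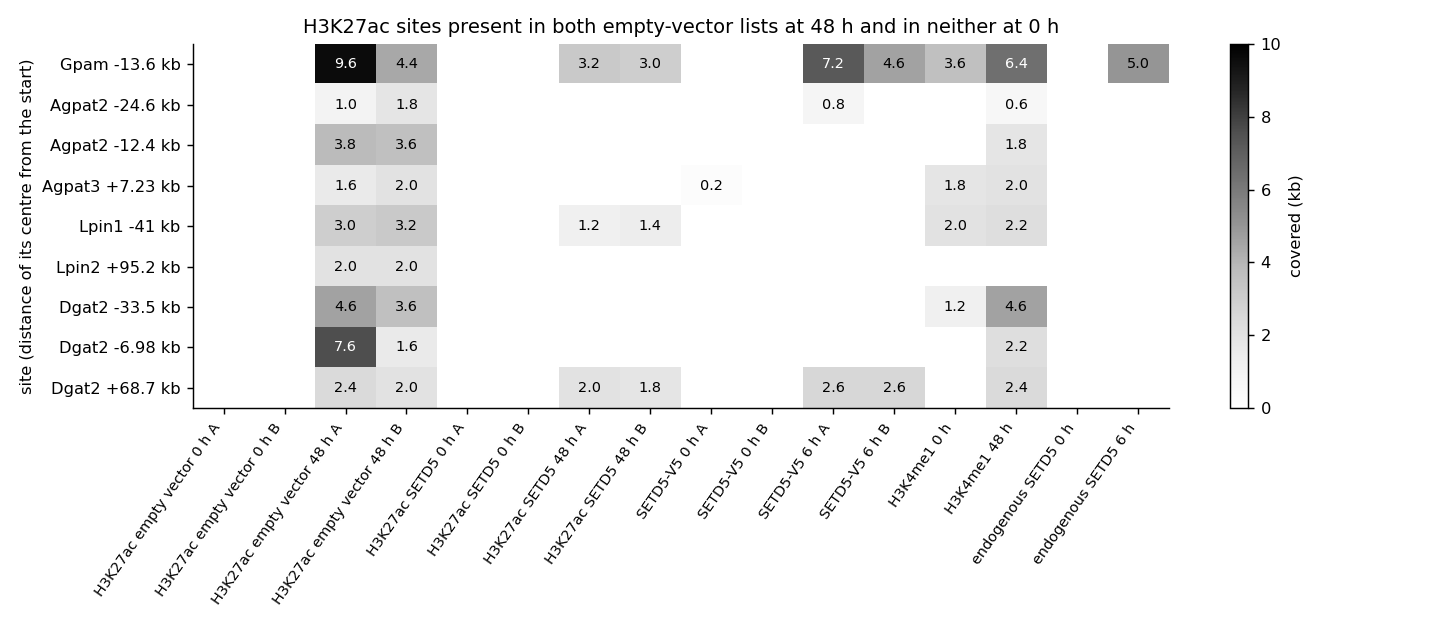
The 9 H3K27ac sites induced in empty-vector cells (rows, by gene and distance of the site's centre from the start in kb) in the 16 lists (columns). Numbers and shading give the covered length in kb and empty cells are 0; the SETD5 48 h columns are empty in 6 of 9 rows, and the Gpam row at -13.6 kb is filled in the SETD5-V5 6 h columns (7.2 and 4.6 kb) and for endogenous SETD5 at 6 h (5.0 kb).

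In empty-vector cells the islands over the starts of Agpat2, Dgat1, Lpin1 and Dgat2 were wider at 48 h in both replicates. So were those over annotated starts further into Gpam and Agpat3, while those over the Lpin2 start and the outermost Agpat3 start were not. The site over the Agpat2 start, chr2:26453601-26469000, was 1 of 2 wide sites in that window at 48 h. H3K27ac covered 2200 and 1800 bp of it at 0 h and 14400 and 12800 bp at 48 h in empty-vector cells. In replicate A the island over the start itself was 7200 bp long and the rest lay upstream of it. In SETD5 cells H3K27ac covered 4200 and 3400 bp at 0 h and 2400 and 1800 bp at 48 h. At this site the widening seen in both empty-vector replicates was thus not seen in either SETD5 replicate. The other wide site, chr2:26404401-26418800, 48.3 kb downstream and nearest to Egfl7, reached 14400 and 13000 bp at 48 h in empty-vector cells and 11800 and 12200 bp in SETD5 cells. Within 10 kb of the gene, the Agpat2 window of SETD5 cells fell from 0 h to 48 h (log2 difference -0.93, adjusted p = 0.0428), opposite to the value for the whole window, and the difference of the 48 h change was called (log2 difference -3.22, adjusted p = 0.0129).

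The Dgat1 start, chr15:76334401-76344400, was covered over 2400 and 1400 bp at 0 h and 9600 and 9400 bp at 48 h in empty-vector cells. At 48 h the scores of 1.12% and 1.64% of the islands in those lists were higher, against 51.3% and 55.9% at 0 h. With SETD5 the site also widened, from 1800 bp in both replicates to 7600 and 7400 bp, with 10.5% and 12.9% of islands higher in score. The whole Dgat1 window changed less than its start, and a 14200 bp site over the neighbouring gene Scx moved the other way, from 12600 and 9800 bp to 7200 and 7400 bp in empty-vector cells.

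The Lpin1 start, chr12:16591201-16599400, was covered over 400 and 1000 bp at 0 h and 8200 and 6000 bp at 48 h in empty-vector cells, and over 2000 and 2800 bp and then 5000 and 4200 bp in SETD5 cells. A site 29.1 kb upstream of Lpin1, chr12:16622401-16629000, was close to induced, with 0 and 200 bp at 0 h and 6200 and 6600 bp at 48 h. With SETD5 it had 3600 and 5000 bp at 48 h. It is the Lpin1 site that SETD5-V5 covered in both replicates at 6 h (4200 and 4000 bp).

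The outermost annotated start of Gpam had no H3K27ac, and an annotated start 27.9 kb downstream lay in the kept site chr19:55171801-55181400. That site was covered over 4000 and 5000 bp at 0 h and 9200 and 7600 bp at 48 h in empty-vector cells, and over 4000 and 4600 bp and then 3000 and 4600 bp in SETD5 cells. The Dgat2 start, chr7:106329801-106333200, was covered over 800 bp in both replicates at 0 h and 3400 and 1200 bp at 48 h in empty-vector cells. In the SETD5 lists it had 1200 and 800 bp at 0 h and 1000 bp in both replicates at 48 h. The longest Dgat2 site at 48 h (8000 and 5400 bp) lay over the start of Uvrag, chr7:106287201-106295800, and covered 8400 and 6200 bp at 0 h.

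Agpat3 and Lpin2 had wide sites at both times. The site over the outermost Agpat3 start, chr10:77810801-77827600, was covered over 9800 and 10000 bp at 0 h and 9200 and 6800 bp at 48 h in empty-vector cells. The longest Agpat3 site at 48 h, chr10:77751601-77764000, lies over another of its starts and widened from 3800 and 5400 bp to 10400 and 9800 bp. With SETD5 it covered 8200 and 7800 bp already at 0 h and 10000 and 11600 bp at 48 h. The Lpin2 start, chr17:71532001-71535000, was covered over 3000 and 1400 bp and then 1600 and 1200 bp, and the longest site of its window lay in an intron of Emilin2, chr17:71632001-71646200, with 12000 and 11000 bp and then 12400 and 11400 bp.

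**Figure D4:**
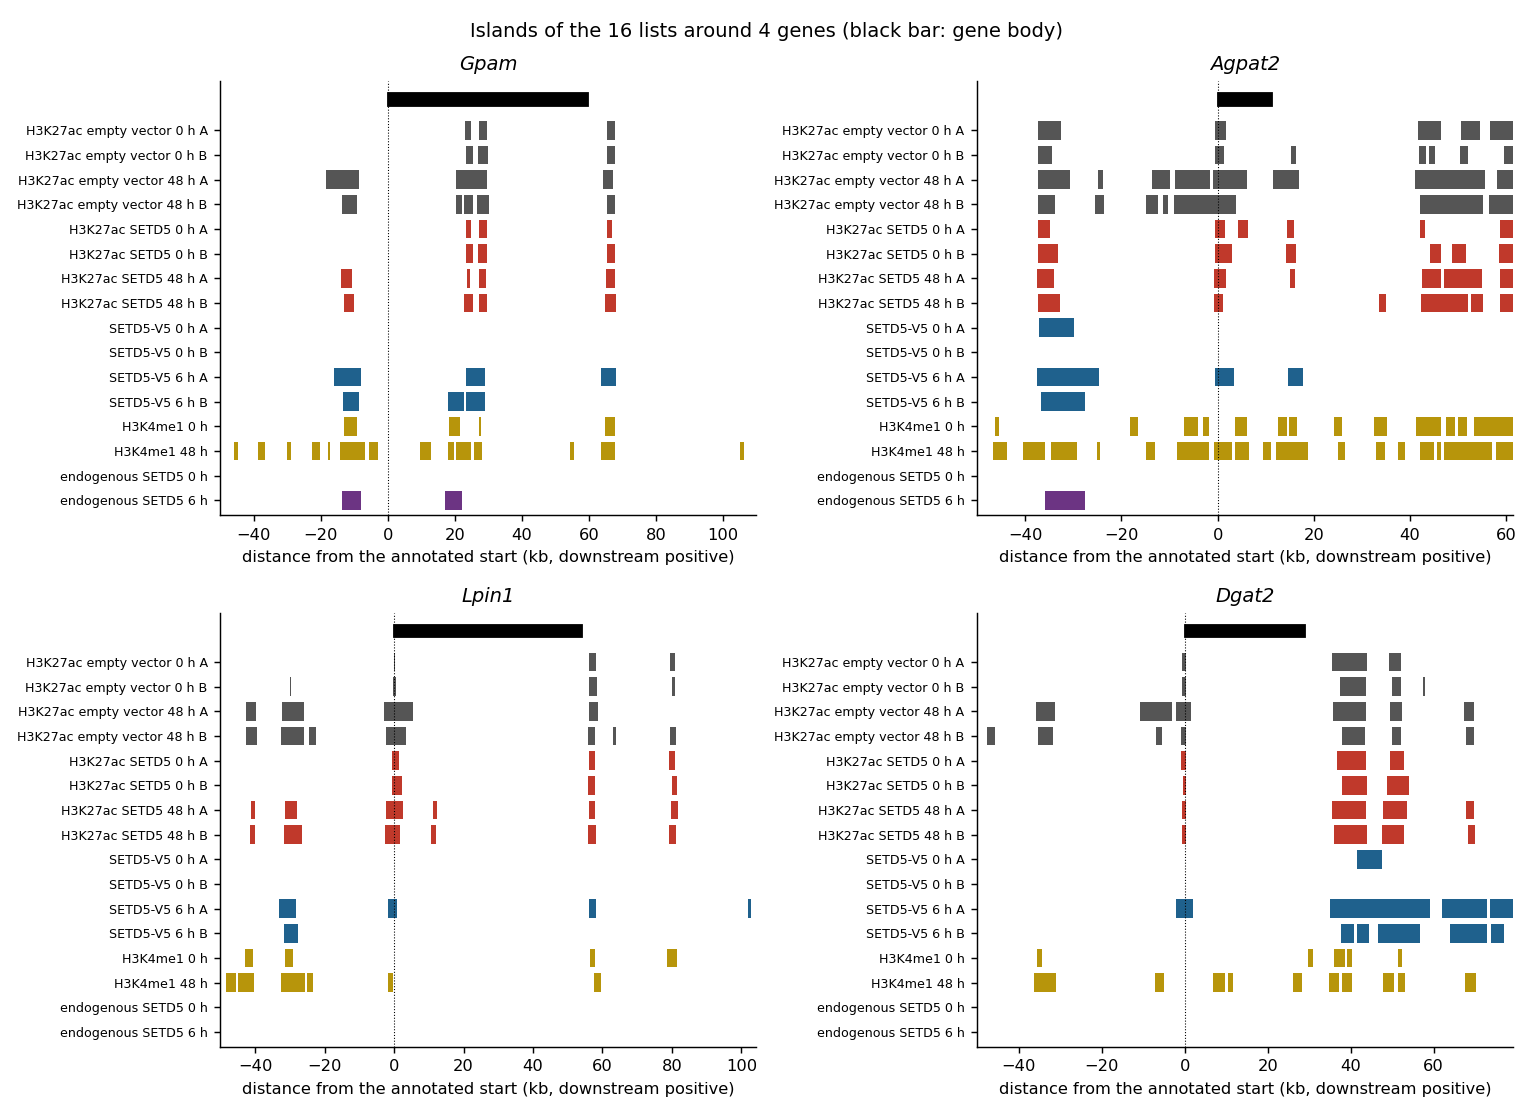
Islands of the 16 lists (rows) around Gpam, Agpat2, Lpin1 and Dgat2, by distance from the outermost annotated start in kb (horizontal axis, downstream positive), with the gene body as a black bar. H3K27ac is grey in empty-vector and red in SETD5 cells, SETD5-V5 blue, H3K4me1 yellow and endogenous SETD5 purple; in the site that spans the Agpat2 start the grey islands at 48 h cover 14400 and 12800 bp and the red ones 2400 and 1800 bp, and the Gpam block 13.6 kb upstream recurs in all marks.

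At the 4 genes with the largest gain in empty-vector cells, the island over the acetylated start was longer at 48 h in both replicates. The 250 bases before these starts are given here. They were read from mm9 on the strand of the gene, which is minus for all 4, at chr12:16596577-16596826, chr2:26459938-26460187, chr19:55173942-55174191 and chr7:106331224-106331473. Capitals mark matches on both strands of GGGCGG (the GC box) and of TATAAA (the TATA box).
Lpin1: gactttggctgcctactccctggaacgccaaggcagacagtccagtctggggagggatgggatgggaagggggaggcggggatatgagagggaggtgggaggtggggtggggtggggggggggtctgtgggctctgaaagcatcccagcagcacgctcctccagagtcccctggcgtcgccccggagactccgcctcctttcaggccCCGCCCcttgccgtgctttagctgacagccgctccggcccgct
Agpat2: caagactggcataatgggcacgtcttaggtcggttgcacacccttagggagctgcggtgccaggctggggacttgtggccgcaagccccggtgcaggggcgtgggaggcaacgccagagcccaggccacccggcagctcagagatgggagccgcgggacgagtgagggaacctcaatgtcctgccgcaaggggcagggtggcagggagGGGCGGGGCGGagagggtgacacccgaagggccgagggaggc
Gpam: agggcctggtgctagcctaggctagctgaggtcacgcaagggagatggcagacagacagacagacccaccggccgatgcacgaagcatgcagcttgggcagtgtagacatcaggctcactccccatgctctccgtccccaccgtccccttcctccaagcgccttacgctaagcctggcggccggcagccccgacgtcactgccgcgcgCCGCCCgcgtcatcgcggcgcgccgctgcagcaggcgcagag
Dgat2: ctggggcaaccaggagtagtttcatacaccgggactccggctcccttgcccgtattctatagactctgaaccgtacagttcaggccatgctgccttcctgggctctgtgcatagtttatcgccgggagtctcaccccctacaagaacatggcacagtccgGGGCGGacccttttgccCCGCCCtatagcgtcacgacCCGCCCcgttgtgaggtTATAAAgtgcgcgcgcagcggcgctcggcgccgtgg
The GC box occurred 1, 2, 1 and 3 times in this order, with the 2 matches of Agpat2 overlapping, and is found before 39.6% of all coding starts. TATAAA occurred before Dgat2 alone (12.3% of all). The CCAAT box, CCAAT, matched none (35% of all). The motif letters of the adipogenic factors, TTGCNNAA for C/EBP (9.16% of all), TGANTCA for AP-1 (6% of all) and the direct repeat element of PPAR (0.34% of all), also matched none of the 4, which says only that these letters are not in these windows. The bases G and C made up 68% of the Lpin1 and Gpam windows, 69.2% of that of Agpat2 and 61.2% of that of Dgat2.

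V5-tagged SETD5 was listed in every window at 6 h. Gpam alone was called in the test of the change from 0 h. It had no island in either 0 h list and met the minimum covered length only through the 6 h lists. Its call therefore cannot separate a change from that filter. All 7 held an island in both 6 h lists, as did 57.9% of all coding windows. Gpam and Lpin1 had none in either 0 h list, and 14% of all windows likewise had islands in both 6 h lists and in neither 0 h list. The limma test was fitted on the 4 SETD5-V5 libraries over 14764 windows, of which 7.57% were called higher and 0.0406% lower. The lists themselves grew between 0 h and 6 h, so that the median log2 difference of all windows was 1.81. It was 1.06 after scaling to the total covered length, and the members are given relative to the first of these values. The SE and adjusted p beside each belong to the whole difference from 0 h to 6 h and do not test its excess over the median.

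Gpam was at 0 kb in both replicates at 0 h and at 18.4 and 15 kb at 6 h (log2 difference 2.33 above the median, SE 0.52, adjusted p = 0.049). Gpam and Lpin1 were at 0 in both 0 h lists, and Agpat2, Agpat3, Dgat1 and Dgat2 in that of replicate B. The sizes of their values therefore rest on the added 1000 bp, and with 200 bp in its place Gpam and Lpin1 were called. Gpam and Lpin1 also reached the minimum mean of 1000 bp only through the 6 h libraries, so the test cannot separate a change there from that filter. Lpin1 went from 0 kb in both to 10.6 and 4 kb (1.12 above the median, SE 0.61, adjusted p = 0.0808). Dgat2 went from 6 and 0 kb to 44.2 and 28.2 kb (1.97 above the median, adjusted p = 0.17), and Dgat1 from 11.6 and 0 kb to 62.4 and 24 kb (1.68 above the median, adjusted p = 0.245). For these genes both 6 h libraries lay above both 0 h libraries, while the 6 h libraries also differed between replicates by more kb than the 0 h ones did.

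At Lpin2 SETD5-V5 covered similar lengths in both 6 h replicates, with 19.6 and 5.8 kb at 0 h and 49.6 and 54.6 kb at 6 h (0.36 above the median, adjusted p = 0.174). Agpat2 went from 7.2 and 0 kb to 20 and 9 kb (0.53 above the median, adjusted p = 0.328). Agpat3 went from 16.8 and 0 kb to 28.4 and 6 kb, with overlapping groups (-0.04 relative to the median, adjusted p = 0.492). In 6 of 7 windows both 6 h libraries exceeded both 0 h libraries, against 62% of all windows. The SETD5-V5 count depended on the processing. No member was called with equal numbers of islands or with no filter. With the letter as a replicate block Gpam, Lpin1, Dgat1 and Dgat2 were called. The count also depended on the 0 h library of replicate A. Without it all 7 members were called, and the fits without 1 of the other 3 libraries called 2 members each.

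Of the 53 H3K27ac sites, 18 had SETD5-V5 at 6 h in both replicates (34% against 38.1% of all sites), and 1 had it at 0 h in both (1.89% against 7.94%). Of the kept sites 12 of 24 had it (50% against 58.9%) and of the induced ones 2 of 9 (22.2% against 36.5%), so the shares were near or below those of the genome. The 2 induced sites were those of Gpam at 13.6 kb upstream and of Dgat2 at 68.7 kb downstream. None of the 6 sites absent with SETD5 had an island in both 6 h lists. Lpin2 held 6 of the 18 sites, Dgat1 and Dgat2 held 3 each, Gpam and Agpat3 held 2 each, and Agpat2 and Lpin1 held 1 each.

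In each window the best-ranked stretch covered by SETD5-V5 in both 6 h lists was taken, and the 3 of highest rank whose middle 300 bases hold no exon of a coding gene are given here. None of these 3 lies at the member's start. For Dgat1 the best-ranked stretch, chr15:76335001-76341000, lies in the site over its start, with 8.86% and 28.5% of islands higher in score. In the Lpin2 window it was chr17:71635401-71645600 in Emilin2, with 7.18% and 6.42% of islands higher in score, and in the Dgat2 window chr7:106274401-106284600 in Uvrag, with 3.25% and 10.5%. At Gpam it was chr19:55210401-55215200, with 9.99% and 11.9%. The middle 300 bases of these 3 stretches are given on the plus strand of mm9, at chr17:71640351-71640650, chr7:106279351-106279650 and chr19:55212651-55212950. A rank belongs to a whole island, so where within a stretch SETD5-V5 was highest is not known. No base is in capitals, because TTGCNNAA, TGANTCA and the PPAR element matched none of them. That says only that these letters are not in the 300 bases printed.
Lpin2 window: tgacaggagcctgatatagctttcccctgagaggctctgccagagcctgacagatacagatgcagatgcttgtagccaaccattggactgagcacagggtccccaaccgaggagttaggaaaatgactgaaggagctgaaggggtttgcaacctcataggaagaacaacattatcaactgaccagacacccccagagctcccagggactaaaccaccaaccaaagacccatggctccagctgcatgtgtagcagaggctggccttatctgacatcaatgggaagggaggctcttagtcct
Dgat2 window: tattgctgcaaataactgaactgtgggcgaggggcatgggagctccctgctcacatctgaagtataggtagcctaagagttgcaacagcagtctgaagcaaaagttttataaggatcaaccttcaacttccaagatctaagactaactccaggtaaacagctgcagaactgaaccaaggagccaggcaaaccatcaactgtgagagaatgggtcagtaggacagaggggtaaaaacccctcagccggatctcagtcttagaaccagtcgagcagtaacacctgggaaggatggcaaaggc
Gpam window: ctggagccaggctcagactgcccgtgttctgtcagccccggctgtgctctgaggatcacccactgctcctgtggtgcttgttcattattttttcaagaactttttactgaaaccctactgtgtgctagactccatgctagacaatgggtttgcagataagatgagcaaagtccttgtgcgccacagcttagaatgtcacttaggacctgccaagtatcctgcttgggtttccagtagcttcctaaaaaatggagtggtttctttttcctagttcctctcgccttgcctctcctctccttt
Over the 26945 stretches of the genome shared by both 6 h lists, the middle 300 bases held TTGCNNAA in 15.2%, TGANTCA in 13.9% and the PPAR element in 0.527%.

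Endogenous SETD5 was listed in 2 of the 7 windows at 6 h and in none at 0 h. Of all coding windows, 20.8% held an island at 6 h, 11.2% at 0 h and 12.3% at 6 h alone. Gpam had 2 islands that covered 10.6 kb, with 86.8% and 88.7% of islands higher in score, and Agpat2 had 1 that covered 8.2 kb, with 20.3% higher. The Agpat2 island overlapped the kept site chr2:26490601-26497600, 34.2 kb upstream over an exon of Fam69b, which SETD5-V5 covered over 7000 and 6000 bp at 6 h. With 1 library per time these values have no replicate check.

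H3K4me1 covered more of every window at 48 h than at 0 h, as it did in 64% of all windows with a mean of at least 1000 bp. Dgat2 went from 7.4 to 25.6 kb, a log2 difference of 1.66 in covered length + 1000 bp, and Gpam from 10.8 to 36 kb, a log2 difference of 1.65. Lpin1 went from 9.2 to 19.4 kb, which is a log2 difference of 1.00. These 3 of 7 genes were at least 2-fold higher, Lpin1 just at that limit, against 14.4% of all windows. Dgat1 went from 20 to 38.4 kb, Agpat2 from 34.2 to 58.8 kb, Lpin2 from 34.6 to 41.8 kb and Agpat3 from 35 to 41.4 kb. The median log2 difference was 0.91 over the members and 0.24 over all windows. There was 1 library per time, so no test was made.

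**Figure D5:**
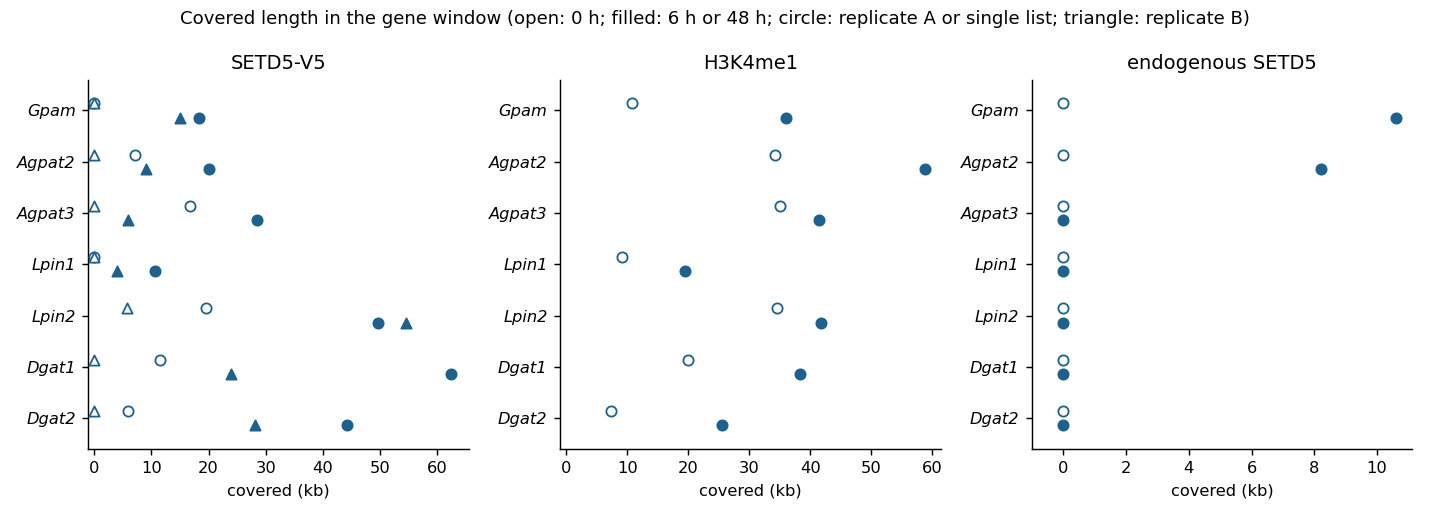
Length covered in each gene window (kb, horizontal axis) by SETD5-V5, H3K4me1 and endogenous SETD5, with open symbols for 0 h and filled ones for 6 h (SETD5) or 48 h (H3K4me1). Circles are replicate A or a single list and triangles replicate B; Gpam and Lpin1 sit at 0 for SETD5-V5 at 0 h, and endogenous SETD5 leaves 0 at Gpam (10.6 kb) and Agpat2 (8.2 kb) alone.

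Of 17 other genes of glycerolipid synthesis, 9 were called higher and 2 lower in empty-vector cells between 0 h and 48 h, against 25.6% and 14.3% of all windows. The largest gains were at Gpat3 (listed as Agpat9 in the annotation), which encodes another enzyme of the first acylation, and Acsl1, which activates fatty acids. Gpat3 went from 3 and 1.6 kb to 22.8 and 18.4 kb (log2 difference 2.74, SE 0.26, adjusted p = 2.3e-05). Acsl1 went from 8 and 5.2 kb to 55.4 and 38.8 kb (log2 difference 2.67, SE 0.25, adjusted p = 2.19e-05). Mogat2, whose window overlaps that of Dgat2, rose by 1.38 (adjusted p = 0.000942). Agpat5, a further acyltransferase of the Agpat family, fell by 1.26 (adjusted p = 0.000674), though with a 10 kb window its value was 0.22 and was not called.

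In SETD5 cells Gpat3 had 2 and 3.2 kb at 0 h and 3 and 3.6 kb at 48 h, and Acsl1 had 6.2 and 5.4 kb and then 10.4 and 6.6 kb. The difference of the 48 h change was called at Gpat3 (-2.46, SE 0.37, adjusted p = 0.00806), Acsl1 (-2.21, SE 0.36, adjusted p = 0.0107) and Mogat2 (-1.47, SE 0.34, adjusted p = 0.0366), and in the other direction at Agpat5 (2.07, SE 0.29, adjusted p = 0.00669). These 4 of 17 compare with 1.88% of windows called higher and 2.89% lower. Leaving out SETD5 replicate A of 48 h lost the calls of Gpat3, Mogat2 and Agpat5, and leaving out its replicate B those of Acsl1 and Mogat2. At 48 h between the vectors the same genes were called, with log2 differences of -2.35 at Acsl1, -2.33 at Gpat3, -1.21 at Mogat2 and 1.11 at Agpat5, against 9.25% of all windows called lower and 8.02% higher.

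Over 48 h in SETD5 cells 3 of the 17 were called higher (Agpat5, Agpat4 and Plpp1, with log2 differences of 0.81, 0.63 and 0.45) and 1 lower (Lclat1, -0.82), against 16.2% and 12.9% of all windows. At 0 h between the vectors Agpat5 was called, at -0.96, where 1.11% of all windows were called lower. For SETD5-V5, 14 of the 17 passed the minimum and Acsl1 was called (limma, adjusted p = 0.049), against 7.57% of all windows. It had 0 kb in both replicates at 0 h and 18.2 and 18 kb at 6 h. Acsl1 thus met the minimum only through the 6 h libraries, and the test cannot separate a change there from that filter. Endogenous SETD5 was listed at both times at 4 of the 17, namely Gpat3 (4 and 3.4 kb), Mogat1 (5.6 and 2 kb), Gpd1 and Plpp3, against 8.58% of all windows. At 6 h alone it was listed at 2, Agpat1 and Agpat5, against 12.3% of all windows.

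The coding gene whose covered length over the 12 H3K27ac and SETD5-V5 libraries was most like that of each member was sought among windows that do not overlap. The root mean square difference of log2(covered bp + 1000) was 0.20 between Gpam and Trpm6, 0.21 between Dgat1 and Gm12184, and 0.24 between Dgat2 and Sh3glb1. It was 0.29 between Lpin2 and Dbndd2, 0.30 between Lpin1 and 4930486L24Rik, 0.32 between Agpat2 and Il17rc and 0.34 between Agpat3 and Nav1. None of the 7 closest genes was another member. With 7 members among 22367 coding genes, such a match was unlikely in any case, so its lack carries no result.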

How the data were processed

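The deposited lists give, per the study's methods, islands called in each library with SICER 1.1 or SICER2 1.0.2 (window 200 bp, gap 400 bp, or 600 bp in the case of SETD5, E-value 100) from reads mapped to mm9 with ELAND or Bowtie2 2.3.4.3. Where the study lists island numbers for both callers, the deposited list has the SICER2 number, and H3K4me1 was called with SICER2. The version used on the B lists is not given in the sources used here. The fourth column is the island score the authors' caller gave, which was used for ranks within a list. Whether an input library entered the calling is not given in the sources used here. The study gives total reads per library, 16364976 to 25915409 for H3K27ac and 43312378 to 60284005 for SETD5-V5. Without read counts in the lists, the number of reads behind an island is unknown and no counting interval was given.

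The covered length in each of 22367 protein-coding windows (gene body plus 50 kb) was computed on the mm9 annotation (GENCODE M1). Windows with a mean of at least 1000 bp were fitted with limma 3.58.1 (R 4.3.3, trend and robust) on log2(covered bp + 1000), the 8 H3K27ac and the 4 SETD5-V5 libraries separately, with Benjamini-Hochberg adjustment over all windows tested and a threshold of 0.05. The libraries were treated as unpaired. Over windows, the A minus B differences correlated between groups at -0.0311 to 0.119 for H3K27ac and 0.0156 for SETD5-V5. These values leave out a shift shared by a whole list, so they cannot show whether the letters pair the libraries. Replicate A of SETD5-V5 held more islands than replicate B at both times. H3K4me1 and endogenous SETD5 had no test. Alternatives were the pseudocount, window, scaling, score, equal numbers of islands, filter, nearest start, replicate block and leaving out each library. All 7 members were named, with at most 4 of 17 other glycerolipid genes per tested comparison, by the size of a called difference. Those of the 17 with an endogenous SETD5 island at 6 h and the 1 closest gene per member were also named. Promoters were printed for the 4 largest called gains, and SETD5-V5 stretches for the 3 best-ranked outside coding exons. The members, lists and tests were chosen with earlier results of these data known, and the TATA, CCAAT and GC box motifs were added after the other 3 had been searched.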

Additional observations from a re-analysis of the deposited data

Results flagged for a closer look

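At Lpin2 the 48 h value was above the 0 h value of the same letter in both empty-vector replicates and below it in both SETD5 replicates. H3K27ac covered 17.4 and 15.4 kb at 0 h and 19.6 and 17.0 kb at 48 h in empty-vector cells, where the groups overlapped and the change did not pass (log2 difference 0.15, adjusted p = 0.447). In SETD5 cells it covered 25.6 and 23.0 kb at 0 h and 17.6 kb in both replicates at 48 h, so the values of the vectors overlapped at 48 h. The difference of the 48 h change was -0.59 on the log2 scale (limma, adjusted p = 0.127), so it did not pass the test. The libraries were treated as unpaired there, and whether the letters pair them is not known. With islands above the median score both changes took the other sign (-0.083 and 0.18). Over 16 alternatives the value lay between -0.88 and 0.27, with adjusted p between 0.0814 and 0.799.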

How the results depend on the processing

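In empty-vector cells Gpam, Agpat2 and Lpin1 were called higher at 48 h in all 16 alternatives, Dgat2 in 14, Agpat3 in 10 and Dgat1 in 5. Of 1130 alternative values for members, other glycerolipid genes and counts, 885 kept their direction and side of the threshold, or stayed within 1.5 times for counts, 108 lost a call, 33 gained one, 27 changed sign and 77 moved. Unless a construction is named, the cause was not tested. A region under the caller's threshold cannot be told apart from an unmarked one, and each group has 2 libraries.

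The SETD5-V5 call of Gpam carries the limit of the filter given above. The number of members called, 2 for SETD5 cells over 48 h, 1 between vectors at 0 h, 3 between vectors at 48 h, 0 for the difference of the change and 1 for SETD5-V5, moved as follows. With a pseudocount of 200 bp there were 0 at 0 h and 2 for SETD5-V5. With a 10 kb window there were 4 for SETD5 cells, 1 at 48 h, 1 for the difference and 2 for SETD5-V5, and at 0 h Lpin2 in place of Agpat3. Scaling to covered length gave 5 for SETD5 cells and 2 at 0 h. Islands above the median score gave 1 at 48 h and 1 for the difference, and other members at equal counts, Agpat2 and Lpin1 in SETD5 cells and Dgat1 at 0 h. Equal numbers of islands gave 0 at 0 h, 2 at 48 h (Agpat2 and Lpin1), 1 for the difference and 0 for SETD5-V5, and Agpat2 and Lpin1 in SETD5 cells. With no filter there were 1 for SETD5 cells and 0 at 0 h, at 48 h and for SETD5-V5. Islands nearest to the gene's own start gave 0 at 0 h, 1 at 48 h, 1 for the difference and 2 for SETD5-V5, and Lpin1 and Dgat1 in SETD5 cells. In empty-vector cells the count was 6 and lay between 4 and 6 over these settings. With the letter as a replicate block there were 0 at 0 h and 4 for SETD5-V5 (Gpam, Lpin1, Dgat1 and Dgat2), against 5 in empty-vector cells, 2 in SETD5 cells, 3 at 48 h and 0 for the difference. Leaving out 1 library gave 4 to 5 in empty-vector cells, 1 to 3 in SETD5 cells, 0 to 1 at 0 h, 0 to 3 at 48 h, and 2 to 7 for SETD5-V5, where a lone library was assumed to vary like the others.

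Among sites, a 10 kb window left 4 induced, 3 of them absent with SETD5, and 9 with SETD5-V5. Islands above the median score left 2 absent and 11 with SETD5-V5, and equal numbers left 6 with SETD5-V5. Leaving out 1 replicate gave 12 induced in each case, 6 to 9 absent and 18 to 31 with SETD5-V5.

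The values that changed sign were mostly small. With a 10 kb window they were Agpat5 in empty-vector cells (0.22), Agpat2 in SETD5 cells (-0.93), Agpat2 (0.94), Dgat1 (-0.029) and Dgat2 (-0.26) at 0 h and Lpin2 at 48 h (0.55). With islands above the median score they were Lpin2 in empty-vector (-0.083) and SETD5 cells (0.18), at 48 h (0.29) and in the difference (0.27), Gpam (0.24) and Lpin1 (-0.090) at 0 h, and Agpat3 in the difference (0.43). With islands nearest to the start they were Agpat2 in SETD5 cells (-0.63), Agpat2 (0.68) and Dgat1 (-0.029) at 0 h and Lpin2 at 48 h (0.64). Over the fits that left out 1 library, the values that took both signs ran from -0.035 to 0.22 for Dgat1 in SETD5 cells, and at 0 h from -0.43 to 0.27 for Agpat2, -0.30 to 0.021 for Gpam, -0.13 to 0.26 for Dgat1 and -0.045 to 0.30 for Dgat2. They ran from -0.15 to 0.047 for Lpin2 at 48 h, from -0.25 to 0.080 for Agpat3 in the difference and from -0.31 to 3.84 for Agpat3 with SETD5-V5.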
